A study of Mus musculus with 16 samples.

Results

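The question was whether estradiol altered transcript levels in cardiomyocytes in which glucocorticoid targets such as Per1 were on. For this, 3 arrays labelled Dex+E2 (1, 2 and 4) were set against 3 arrays labelled Dex (1, 2 and 4). These are 6 of the 16 arrays of the series. They are the arrays with these labels on which the glucocorticoid target Per1 was high, at 1.81 to 1.99, and Dex 3 (-1.15) and Dex+E2 3 (-1.11) were left out because it was low there. All levels are log2 intensities, with the array's 75th percentile set to 0, and all differences are Dex+E2 minus Dex on that log2 scale.

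The cells were HL-1, a mouse atrial cardiomyocyte line that is transformed and beats in culture, labelled female and grown in Claycomb medium. The Dex group received 100 nM of the synthetic glucocorticoid dexamethasone and the Dex+E2 group 100 nM dexamethasone with 10 nM estradiol. The same 6 h applied to all groups, and the vehicle was PBS. The sources used here do not say whether the serum was stripped of hormones. The design text gives the experiments as 4 independent ones, without saying what was independent, so p-values measure the spread between these arrays, which may in part be technical. Across the series, 4 of the 16 arrays went against their label in Per1, which is why groups are called by their labels: Dex 3 and Dex+E2 3 were low, and Vehicle 4 and E2 4 were high. On the 6 arrays 58.6% to 62.5% of probes stood well above background. Dex 1 and 2 lay on slide 1, Dex 4 with Dex+E2 1 and 2 on slide 3, and Dex+E2 4 on slide 4, so slide 3 alone held both groups. The 15 cardiomyocyte markers, among them Myh6, Tnnt2 and Nkx2-5, were above background on all 6 arrays, with a summed linear level of 695 to 830 on the Dex arrays and 714 to 823 on the Dex+E2 arrays. Of 10 macrophage markers 2 were above background on all 6 arrays, and Adgre1, Ptprc, Lyz2, Aif1 and Itgam were so on 0, with sums of 0.161 to 0.216 with Dex and 0.188 to 0.238 with Dex+E2. Of 10 endothelial markers 4 were above it on all 6, and Pecam1, Cdh5, Tek, Tie1 and Cldn5 on 0 (4.59 to 5.03 and 4.70 to 5.06). All 8 smooth muscle markers were above background, at 458 to 542 with Dex and 458 to 546 with Dex+E2.

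Dexamethasone binds the glucocorticoid receptor, which moves to the nucleus and binds DNA at glucocorticoid response elements, inducing genes such as Per1, Tsc22d3 and Klf15. Estradiol binds the nuclear estrogen receptors alpha and beta, which bind estrogen response elements, and the membrane receptor GPER1. Greb1 and Tff1 are standard estrogen receptor targets in breast cancer cells, and in heart muscle glucocorticoid and estrogen signals have been described as acting against each other.

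The sequences 250 bases upstream of annotated starts are given for the genes on which the comparison turns, from RefSeq on build GRCm38.p6. Of 5 genes looked up (Greb1, Tff1, Per1, Klf15 and Insl5), 4 matched, with 7 windows. Capitals mark GGTCA, the core of the estrogen response element, on either strand. Both windows of Greb1, the estrogen target, are printed, then 1 of the 2 of Per1, which defined the arrays, the one of Klf15, and 1 of the 2 of Insl5, the higher gene with the smallest p among those named.
Greb1, first window, chr12:16757240-16757489, minus strand: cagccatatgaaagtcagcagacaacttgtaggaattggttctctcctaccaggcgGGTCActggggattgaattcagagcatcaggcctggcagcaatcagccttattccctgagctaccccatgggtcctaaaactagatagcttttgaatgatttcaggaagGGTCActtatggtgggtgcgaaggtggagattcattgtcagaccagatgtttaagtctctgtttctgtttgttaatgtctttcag
Greb1, second window, chr12:16800887-16801136, minus strand: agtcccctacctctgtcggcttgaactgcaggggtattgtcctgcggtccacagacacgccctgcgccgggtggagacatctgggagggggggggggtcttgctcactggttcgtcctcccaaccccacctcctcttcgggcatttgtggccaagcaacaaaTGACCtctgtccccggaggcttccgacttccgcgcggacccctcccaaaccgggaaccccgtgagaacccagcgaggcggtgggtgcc
Per1, chr11:69098699-69098948, plus strand: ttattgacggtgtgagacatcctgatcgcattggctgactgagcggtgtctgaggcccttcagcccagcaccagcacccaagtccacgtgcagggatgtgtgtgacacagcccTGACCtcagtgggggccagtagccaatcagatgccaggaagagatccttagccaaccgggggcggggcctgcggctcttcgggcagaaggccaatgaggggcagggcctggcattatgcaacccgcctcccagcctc
Klf15, chr6:90462326-90462575, plus strand: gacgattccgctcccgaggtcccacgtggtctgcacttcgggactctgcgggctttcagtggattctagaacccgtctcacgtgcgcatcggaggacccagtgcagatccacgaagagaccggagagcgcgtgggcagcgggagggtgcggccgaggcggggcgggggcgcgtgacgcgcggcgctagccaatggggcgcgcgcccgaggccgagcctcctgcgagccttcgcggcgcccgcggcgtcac
Insl5, chr4:103026729-103026978, minus strand: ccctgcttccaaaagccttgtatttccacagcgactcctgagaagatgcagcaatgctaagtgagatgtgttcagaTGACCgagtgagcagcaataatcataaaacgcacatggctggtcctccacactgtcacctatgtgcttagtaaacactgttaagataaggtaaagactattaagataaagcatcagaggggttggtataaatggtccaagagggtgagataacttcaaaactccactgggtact
The core occurred in 35.2% of the 32851 windows of this length and the full palindrome GGTCANNNTGACC in 0.0639%. The palindrome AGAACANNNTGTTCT, a full glucocorticoid response element, occurred in 0.00913%, and the core AGAACA in 16.1%. The first Greb1 window held 2 estrogen cores, the second 1, and the printed windows of Per1 and Insl5 1 each. The Klf15 window and the windows of Per1 and Insl5 not printed held 0. None of the 7 windows held either palindrome or AGAACA. A match is a description of these letters and says nothing about binding.

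Limma called 0 of 17316 genes at an adjusted p under 0.05 (0%), and the smallest adjusted p was 0.112. At an unadjusted p under 0.05 there were 470 genes (2.71%), where an even spread of p gives 866. Without Dex+E2 4 that number was 1187 and 2 genes were called, and without Dex 1 it was 290 and 0 were called. The median SE was 0.13 with 3 arrays per group, and the 95% interval of the difference lay within 2-fold in both directions for 16104 genes (93.0%) and within 1.5-fold for 13472 (77.8%). A p that misses the threshold does not show that a gene is the same in both groups.

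The glucocorticoid targets were at similar levels in both groups. Because Per1 chose the arrays, and its relatives were low on the arrays left out with it, their agreement between the groups is in part set by that choice and is given as a description. Per1, a clock gene, was at 1.91, 1.81 and 1.99 on the Dex arrays and at 1.86, 1.82 and 1.95 on the Dex+E2 arrays. Klf15, a transcription factor of muscle metabolism, was at 2.19, 2.14 and 2.39 and at 2.25, 2.32 and 2.51. It was at 0.59 and 0.54 on the left-out Dex 3 and Dex+E2 3, and between -0.34 and 0.53 on Vehicle 1 to 3. Its groups overlapped, and the difference was 0.13 ± 0.10 (SE, n = 3 per group; 95% interval -0.11 to 0.36). A dimmer probe for Klf15 differed by -0.13.

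Tsc22d3 (GILZ), an anti-inflammatory leucine zipper gene, was the steadiest of these targets. It was at 1.47, 1.43 and 1.43 on the Dex arrays and at 1.42, 1.52 and 1.41 on the Dex+E2 arrays, a fold between 0.894 and 1.12 (95% interval). Fkbp5, a co-chaperone that restrains the receptor, was at -0.45, -0.42 and 0.24 with Dex and -0.44, -0.46 and 0.03 with Dex+E2. Klf9, another induced transcription factor, was at 1.04, 1.08 and 1.30 with Dex and 0.99, 1.03 and 1.37 with Dex+E2. In both genes the array numbered 4 was the highest of its group, and the groups overlapped. The kinase gene Sgk1 went the other way, with 0.88 on Dex 4 and 0.92 on Dex+E2 4 against 1.15 to 1.23 on the other 4 arrays. The differences were -0.08 ± 0.21 for Fkbp5, -0.01 ± 0.12 for Klf9, -0.02 ± 0.12 for Sgk1 and -0.05 ± 0.10 for the prostaglandin D synthase gene Ptgds (SE, n = 3 per group). The other 2 Fkbp5 probes differed by 0.23 and 0.20.

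Not every gene listed as glucocorticoid-induced stood higher on the Dex arrays than on Vehicle 1 to 3. Per1 and Klf15 did. Sgk1, at 1.04, 1.24 and 0.40 on Vehicle 1 to 3, overlapped its Dex levels. Ptgds was at 2.10, 1.87 and 2.08 on Vehicle 1 to 3 and at 1.98, 2.02 and 2.21 with Dex. The list therefore holds more than genes raised here. Of its 35 measured genes, 0 were called between Dex+E2 and Dex, 15 were higher and 20 lower, with a median difference of -0.02. Over all genes tested, 58.1% were higher, with a median of 0.02. For all 35 the 95% interval lay within 2-fold, for 31 within 1.5-fold, and 34 differed by less than 0.25. The exception was Tat, a liver enzyme of tyrosine breakdown, at -4.41, -4.30 and -4.29 with Dex and -3.46, -4.23 and -3.96 with Dex+E2. Its groups did not overlap, as was so for 986 genes in that direction (5.71%), and Dex+E2 1 was the highest. The lowest member was Gpd1, a glycerol phosphate enzyme, at -0.21 ± 0.22. The gene for the receptor itself, Nr3c1, was at 1.81, 1.82 and 1.65 with Dex and at 1.87, 1.94 and 1.82 with Dex+E2, a difference of 0.12 ± 0.08 (SE, n = 3 per group; adjusted p = 1) with the groups meeting at 1.82. Hsd11b1, whose enzyme regenerates active glucocorticoid, differed by -0.15 ± 0.10. Among the 13 measured genes of the receptor and its partners 0 were called and 7 were higher.

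**Figure D1:**
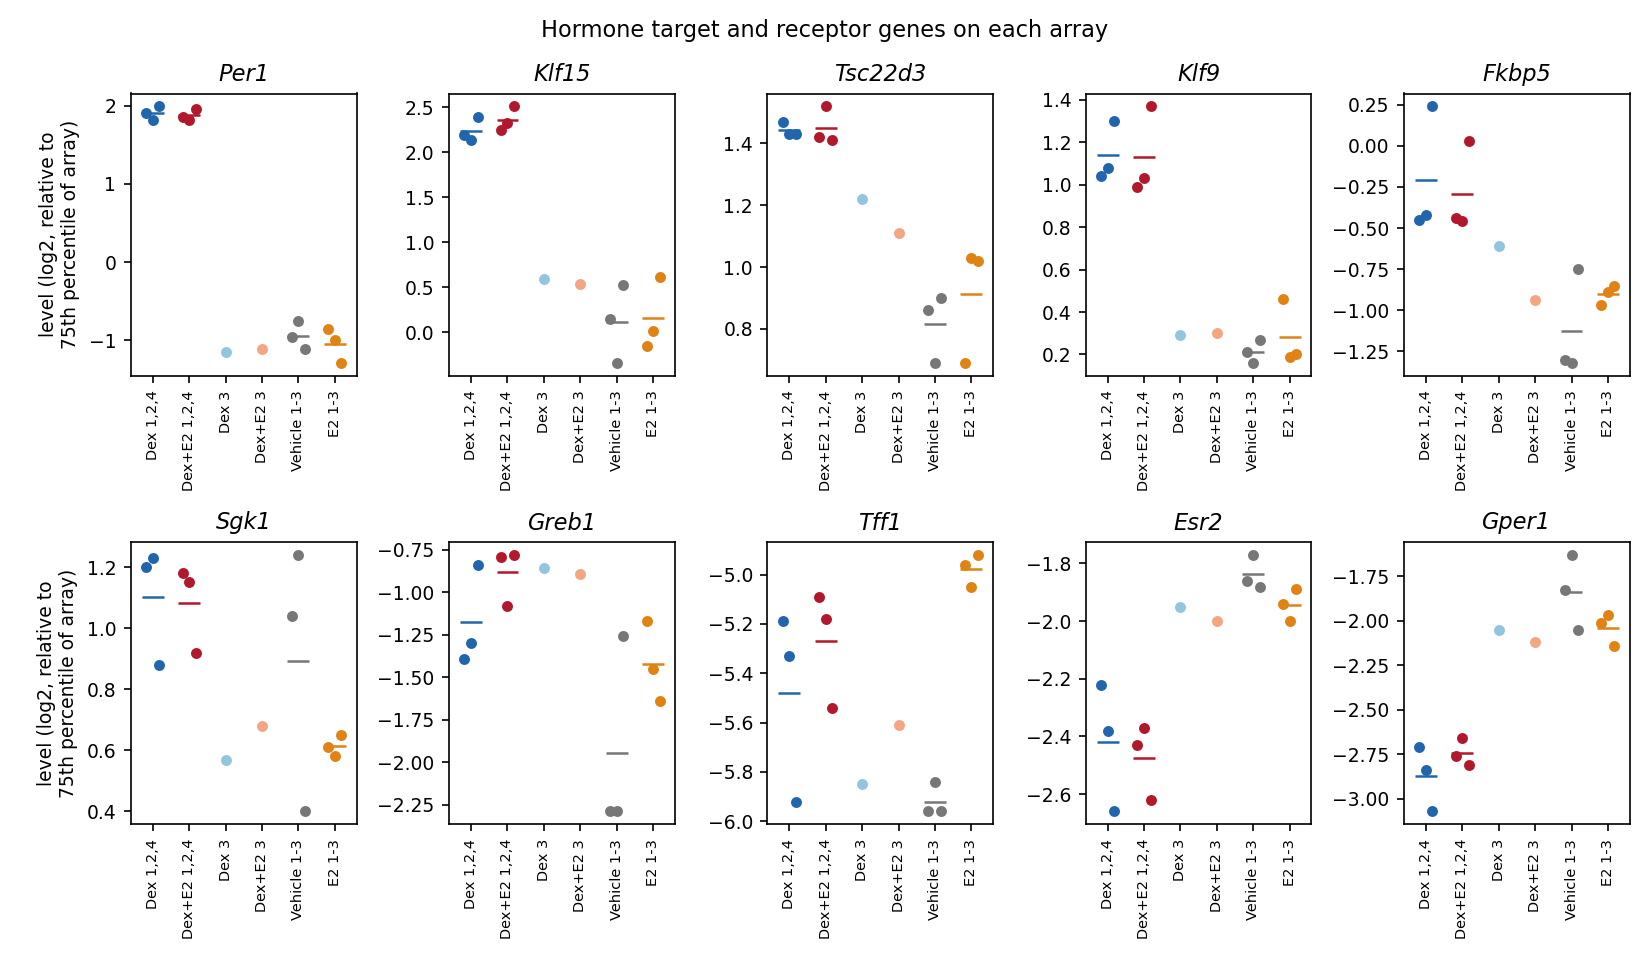
Level of 10 hormone target and receptor genes (log2, with the array's 75th percentile at 0) on each array, by label, with a bar at the mean of each group of 3. On the arrays labelled Dex 1, 2, 4 and Dex+E2 1, 2, 4, Klf15 lies between 2.14 and 2.51 and Greb1 overlaps between the groups; Dex 3 and Dex+E2 3 lie near Vehicle 1 to 3 in Per1.

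The estrogen side of the comparison showed no called gene either. Esr1, encoding estrogen receptor alpha, was above background on 0 of 16 arrays, and Pgr, the progesterone receptor gene, on 0 of these 6, so neither was tested. Esr2, encoding estrogen receptor beta, was measured at -2.22, -2.38 and -2.66 with Dex and -2.43, -2.37 and -2.62 with Dex+E2, a difference of -0.05 ± 0.15 (SE, n = 3 per group). Gper1 was at -2.71, -2.84 and -3.07 and at -2.76, -2.66 and -2.81, a difference of 0.13 ± 0.14. Both receptors overlapped between the groups.

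Greb1 was at -1.39, -1.30 and -0.84 on the Dex arrays and -0.79, -1.08 and -0.78 on the Dex+E2 arrays. Dex 4 lay inside the range of the Dex+E2 arrays, and the difference was 0.29 ± 0.16 (SE, n = 3 per group; 95% interval 0.942 to 1.59 as a fold). An exact permutation test over the 6 arrays gave p = 0.2, two-sided, where the smallest p the design allows is 0.1. Without Dex 4 the difference of Greb1 was 0.46 (0.18 to 0.46 over the arrays left out in turn), and within slide 3 it was -0.10, with Dex 4 alone on the Dex side. Tff1 lay near background, at -5.19, -5.33 and -5.92 with Dex, the last not well above it, and at -5.09, -5.18 and -5.54 with Dex+E2. Its difference was 0.21 ± 0.26 (exact permutation p = 0.5), -0.0083 without Dex 4 and 0.78 within slide 3. On both genes the groups overlapped.

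Without dexamethasone the same genes were read on E2 1 to 3 and Vehicle 1 to 3, which share no array with the comparison. Tff1 was at -5.96, -5.84 and -5.96 on the Vehicle arrays and -4.96, -5.05 and -4.92 on the E2 arrays, 0.94 ± 0.20 higher (SE, n = 3 per group; limma adjusted p = 0.868), with no overlap. Only 2 of the 3 Vehicle arrays, and all 3 E2 arrays, stood well above background for it, so the size of this difference is uncertain. Groups did not overlap in that direction for 4.15% of genes. The difference between the 2 estradiol differences of Tff1 was -0.73 ± 0.31 (limma adjusted p = 0.972), with the same limit. For Greb1 the difference without dexamethasone was 0.52 ± 0.29 (0.865 without Vehicle 3), and the 2 estradiol differences were -0.23 ± 0.37 apart (-0.574 without Vehicle 3 and -0.0587 without Vehicle 1). Limma called 0 of 17316 genes for E2 against Vehicle (0%, with 606, or 3.5%, at an unadjusted p under 0.05) and 0 for the difference of the estradiol differences (0%, with 713, or 4.12%), so no estradiol difference was shown to depend on dexamethasone. Vehicle 1 and 2 lay on slide 1, which held no E2 array, so in both comparisons slide 1 held control arrays only.

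Among 29 measured estrogen-induced genes, 0 were called, 15 were higher and 14 lower, with a median difference of 0.0022. Of these, 26 differed by less than 0.25, 29 had a 95% interval within 2-fold, and 21 within 1.5-fold. The 3 past 0.25 were Greb1, Susd3 and Pdzk1, and the highest was Pdzk1, a scaffold of membrane transporters, at 0.35 ± 0.22. Cited2, a transcriptional co-regulator, was the lowest at -0.12 ± 0.10. Of 21 measured estrogen receptors and coregulators 15 were higher and 0 called, led by Med1, a Mediator subunit that contacts nuclear receptors. Med1 was at 0.67, 0.73 and 0.48 with Dex and 0.77, 0.89 and 0.79 with Dex+E2, 0.19 ± 0.09 higher with no overlap (adjusted p = 1), and it was 0.01 higher on Dex+E2 3 than on Dex 3. The coactivator gene Ep300 was the lowest at -0.09 ± 0.21.

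The 470 genes at an unadjusted p under 0.05 were mostly higher: 429 (2.48% of all genes) against 41 lower (0.237%). The groups did not overlap for 986 genes higher (5.71%) and 351 lower (2.03%). Genes were ordered by level and cut into 4 sets of equal size. Of the 429, 329 were in the dimmest set, at mean levels of -6.78 to -3.07. There 71.6% of genes were higher and the median difference was 0.12, against 0.02, 0.0041 and -0.00062 in the 3 brighter sets. The dimmest set lay at -0.111, -0.042 and -0.093 around its mean on the Dex arrays and at 0.163, 0.033 and -0.06 on the Dex+E2 arrays, so Dex+E2 1 was the highest and Dex+E2 4 was within the Dex range. The split into higher and lower depended on the scaling. Each setting had its own set of genes at an unadjusted p under 0.05, with 244 shared between the 470 found with the 75th percentile and the 362 found with quantile normalization. Of each set, 91.3% were higher with the 75th percentile, 69.1% with quantile normalization, 67.4% with the deposited log2 values, 54.3% with another background correction (normexp) and 29.4% with the array median. The array median moved the median over all genes from 0.02 to -0.11. What part the signal level has in the single differences was not tested.

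**Figure D2:**
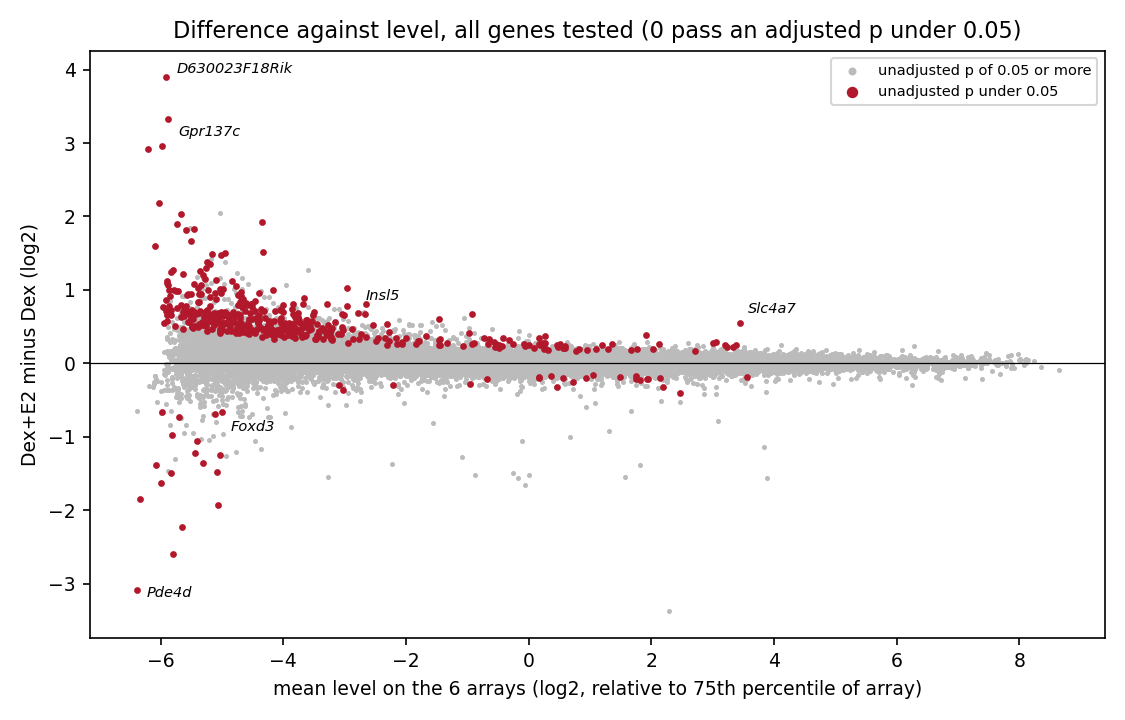
Difference between Dex+E2 and Dex (log2) against the mean level over the 6 arrays (log2, with the array's 75th percentile at 0) for the 17316 genes tested; red points have an unadjusted p under 0.05. Most of the 429 red points above 0 lie at levels below -3.07, and none of the genes passes an adjusted p under 0.05.

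Since 0 genes were called, the genes named here are the 12 with the smallest p in each direction among those with a gene symbol and above background on all 6 arrays without overlap. They were chosen on this comparison and are given as values. Of the 12 higher, 10 had levels below -2. The first was Insl5, a relaxin-family peptide hormone of the gut, at -3.15, -3.06 and -3.18 with Dex and -2.42, -2.44 and -2.46 with Dex+E2. It was 0.69 ± 0.11 higher (SE, n = 3 per group; fold 1.35 to 1.92 as a 95% interval, adjusted p = 0.67). The spread within each group was small beside the gap, which the choice by smallest p favours. On slide 3 alone the gap was 0.75, between the left-out arrays 0.28, and between E2 and Vehicle without dexamethasone 0.35 ± 0.15, again with no overlap.

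Ntsr1, the neurotensin receptor gene, was at -4.88, -4.61 and -5.12 with Dex and -3.94, -4.07 and -3.73 with Dex+E2 (0.96 ± 0.19). Kcnk13, a potassium channel gene, was at -1.88, -1.76 and -1.69 with Dex and -1.38, -1.07 and -1.03 with Dex+E2 (0.61 ± 0.12). The fatty acid hydroxylase gene Cyp4a10 was 0.85 ± 0.18 higher, the transcription factor genes Scrt1 and Sox14 0.80 ± 0.18 and 0.92 ± 0.21, and Tmem225 1.07 ± 0.23 (SE, n = 3 per group; adjusted p = 1). The other members were 9530091C08Rik, Cd300ld3, Tcl1b4 and the olfactory receptor gene Olfr149, at 0.68 to 0.96. For Scrt1, Sox14, Cyp4a10 and 9530091C08Rik, the array's other probes were above background on 0 of the 6 arrays.

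Slc4a7, a sodium bicarbonate cotransporter that moves base into cells, was the only one of the 12 above 0 in level. It was at 3.15, 3.26 and 3.10 with Dex and 3.75, 3.47 and 3.93 with Dex+E2, 0.55 ± 0.12 higher, and 0.75 higher on Dex+E2 3 than on Dex 3. Its other 2 probes differed by 0.19 and 0.18. Without dexamethasone Slc4a7 was at 3.40, 3.44 and 3.89 on the Vehicle arrays and 1.73, 3.28 and 3.39 on the E2 arrays, where E2 1 stood far below the others. The difference was -0.78 ± 0.42, without overlap (as for 4.09% of genes in that direction), and -0.24 without E2 1. The 2 estradiol differences lay 1.33 ± 0.49 apart (SE; limma adjusted p = 0.972), which did not pass the test, and 0.79 apart without E2 1 (limma adjusted p = 0.738).

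The 12 lower genes were brighter, with a median level of 1.21, and differed less. Noc4l, a nucleolar protein gene of ribosome assembly, was at 1.87, 1.98 and 1.95 with Dex and 1.71, 1.63 and 1.78 with Dex+E2 (-0.23 ± 0.08). Egln2, an oxygen-dependent prolyl hydroxylase of the hypoxia pathway, was at 0.67, 0.63 and 0.68 and at 0.45, 0.46 and 0.47 (-0.20 ± 0.07). Both genes had an adjusted p = 1, and the choice of genes favours gaps that are wide beside the spread within groups. The protease gene Ctsh, the ubiquitin ligase gene Rnf5, the vesicle traffic genes Vps37c, Scamp2 and Arfgap2, Rhbdf1, Mpv17l2, the lipase gene Abhd16a and the mitochondrial fission gene Fis1 differed by -0.29 to -0.18. Foxd3, a dim transcription factor gene, differed by -0.67 ± 0.26, by -0.43 without Dex 1, by -0.125 within slide 3 and by -0.197 over all 8 arrays.

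On the left-out arrays, 1 for each label, the difference had the same sign for 12 of the 12 higher genes and 11 of the 12 lower ones, Foxd3 being the exception at 1.21. Over all genes 43.9% and 56.1% had these signs there. Between E2 and Vehicle the same sign was found for 11 of the 12 higher genes, Slc4a7 being the exception, and 5 of the 12 lower ones, where all genes gave 44.4% and 55.6%. Neither the left-out arrays nor the E2 and Vehicle arrays share a sample with the comparison. Vehicle 1 and 2 lay on slide 1, which held no E2 array. In the same direction, E2 and Vehicle did not overlap for 3 of the 12 higher genes and 0 of the 12 lower. Over all genes these shares were 4.15% and 4.09%. Vehicle 3 shared slide 2 with E2 1 and 2. For 9530091C08Rik, Tmem225 and Olfr149, Vehicle 3 lay within the E2 range, at -2.13, -4.76 and -4.21. The same held for Kcnk13 (-1.24), Cd300ld3 (-4), Cyp4a10 (-3.9) and Scrt1 (-3.68). For Tcl1b4 Vehicle 3 lay above that range, at -3.64. Only for Insl5, Ntsr1 and Sox14 of the 12 higher genes did Vehicle 3 lie below the E2 range. The Dex 3 array lay on slide 3 and Dex+E2 3 on slide 4, so slide and label cannot be told apart between them.

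**Figure D3:**
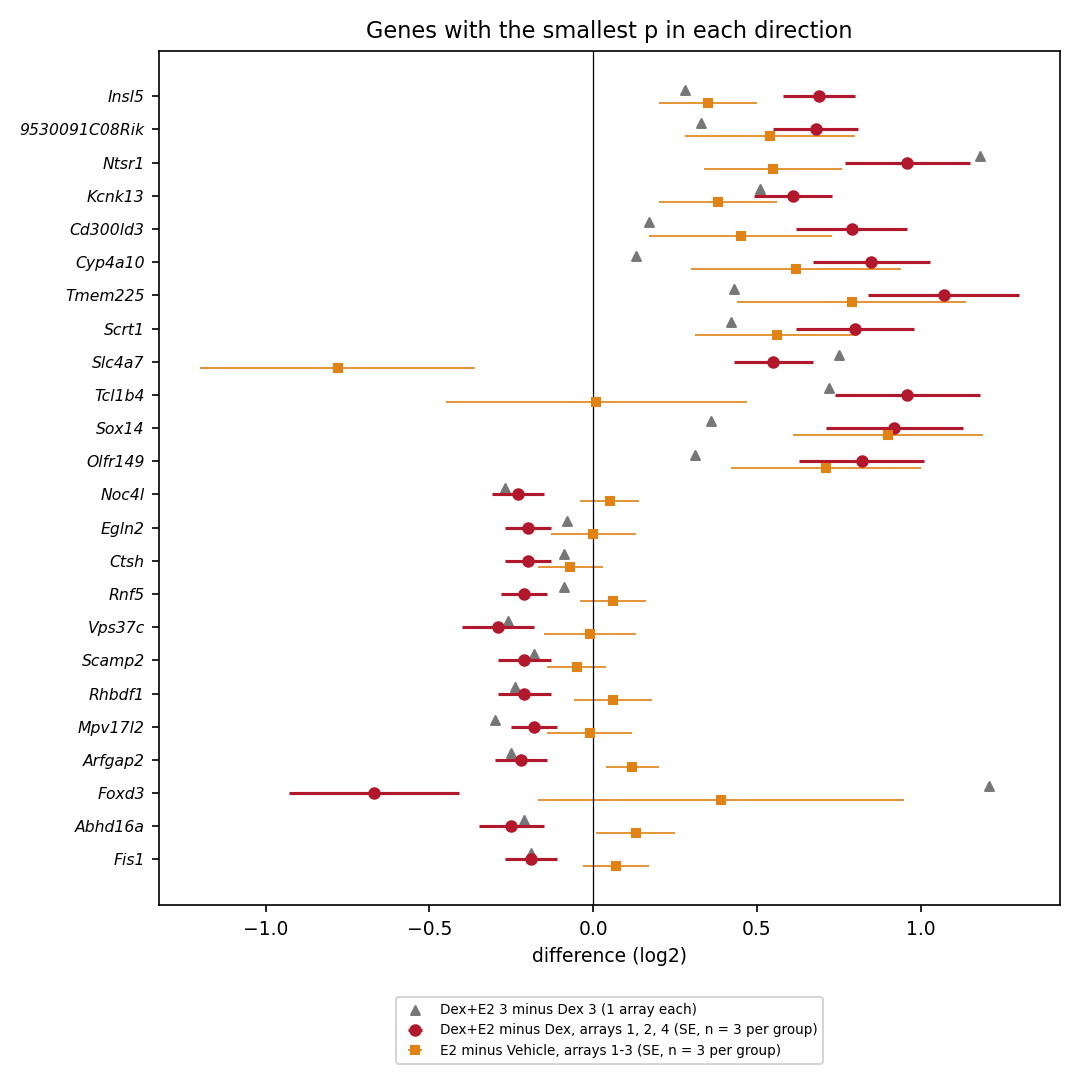
Difference (log2) of the 12 higher and 12 lower genes in 3 comparisons: Dex+E2 minus Dex on arrays 1, 2 and 4 and E2 minus Vehicle on arrays 1 to 3 (bars are SE, n = 3 per group), and Dex+E2 3 minus Dex 3 (1 array each). All 12 higher genes are above 0 on the left-out arrays, and Slc4a7 is below 0 between E2 and Vehicle.

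The smallest p-values of all belonged to dim probes that were above background in 1 group only. Pde4d, a phosphodiesterase that breaks down cyclic AMP, was at -4.56, -5.15 and -4.83 with Dex and -7.88, -7.65 and -8.28 with Dex+E2, at least 2.19-fold lower (limma adjusted p = 0.112). It passed the threshold with quantile normalization (0.0208), with the array median (0.000628), with the deposited values (0.0233) and without the trend (0.0484). The bound sets the bright group's mean against the lowest signal well above background on each dim array. Its other 3 probes were above background on 0 of the 6 arrays, and over the 10 remaining arrays this probe was above background on 3, at -5.09 on Vehicle 3, -4.65 on E2 3 and -4.80 on E2 4. D630023F18Rik was at least 4.87-fold higher (adjusted p = 0.168) and Gpr137c at least 4.07-fold higher (adjusted p = 0.611). These were above background on 5 and 4 of the 10 remaining arrays. Among those was Vehicle 2, with -4.44 and -4.57, without either hormone on its label. These probes were picked after their values were seen, and each passed the filter only through the group in which it was bright. Passing the threshold under other scalings of the same 6 arrays is therefore not separate support.

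Of the other groups of genes none held a called gene. Of 29 sarcomere genes 11 were higher (median -0.02), from Des, the desmin gene, at -0.13 ± 0.08 to Ttn, titin, at 0.28 ± 0.25, where Dex+E2 1 stood at 3.38 and the other 5 arrays at 2.22 to 2.60. Of 25 calcium handling genes 12 were higher (median -0.00053), from the junctophilin gene Jph2 at -0.15 ± 0.09 to Stim1 at 0.18 ± 0.11. Cardiac ion channels and connexins held 8 higher of 21, with Hcn4, the pacemaker channel gene, at 0.43 ± 0.21 and Kcnd2 at -0.41 ± 0.37, both dim. In each of these lists fewer than 58.1% of the members, the share over all genes, were higher.

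Hypertrophy genes held 16 higher of 26 (median 0.03), with Nfatc4, a calcineurin-dependent factor, at 0.35 ± 0.14. Its relative Nfatc1 was at -0.36 ± 0.18. In energy metabolism, Ppargc1a, the coactivator that drives mitochondrial genes, was at 3.02, 2.95 and 2.59 with Dex and 3.16, 3.16 and 3.10 with Dex+E2, 0.28 ± 0.12 higher, with Dex 4 the lowest. Among the metabolic lists it belongs to or regulates, 13 of 30 oxidative phosphorylation genes were higher (median -0.0098) and 13 of 25 fatty acid oxidation genes (median 0.0094). Pkm, the pyruvate kinase of glycolysis, was at 4.81, 4.90 and 4.88 and at 4.77, 4.66 and 4.39, a difference of -0.25 ± 0.11. It was the lowest of 30 hypoxia and glycolysis genes, of which 10 were higher, and Car9, a hypoxia target, was the highest at 0.38 ± 0.15. Stard4 at 0.21 ± 0.10 and Fdft1 at -0.11 ± 0.07 bounded 24 cholesterol synthesis genes, with 12 higher.

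In inflammation, where glucocorticoids repress, Il16 was at -5.75, -5.40 and -5.65 with Dex and -4.94, -4.93 and -4.74 with Dex+E2, 0.73 ± 0.19 higher, at a dim level. Ccl5 was at -0.26 ± 0.28, and 5 of 16 measured cytokine and NF-kB genes and 6 of 20 interferon-response genes were higher (medians -0.06 and -0.02). The immediate early gene Fosb was 0.57 ± 0.22 higher while 13 of its list of 29 were. Id1, a BMP target, was 0.57 ± 0.46 higher, with Dex+E2 4 at -3.14 and the other 5 arrays at -5.25 to -4.24. None of these genes had an adjusted p under 0.05. All 6 measured fibroblast markers were higher (median 0.13, and -0.0656 without Dex 4 to 0.285 without Dex+E2 4), from 0.04 to 0.22, with their summed linear level at 29.4 to 45.2 on the Dex arrays and 32.8 to 48.3 on the Dex+E2 arrays. The fibroblast markers Lum, Thy1 and Dpt were above background on 0 arrays. Their part in other differences was not tested.

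**Figure D4:**
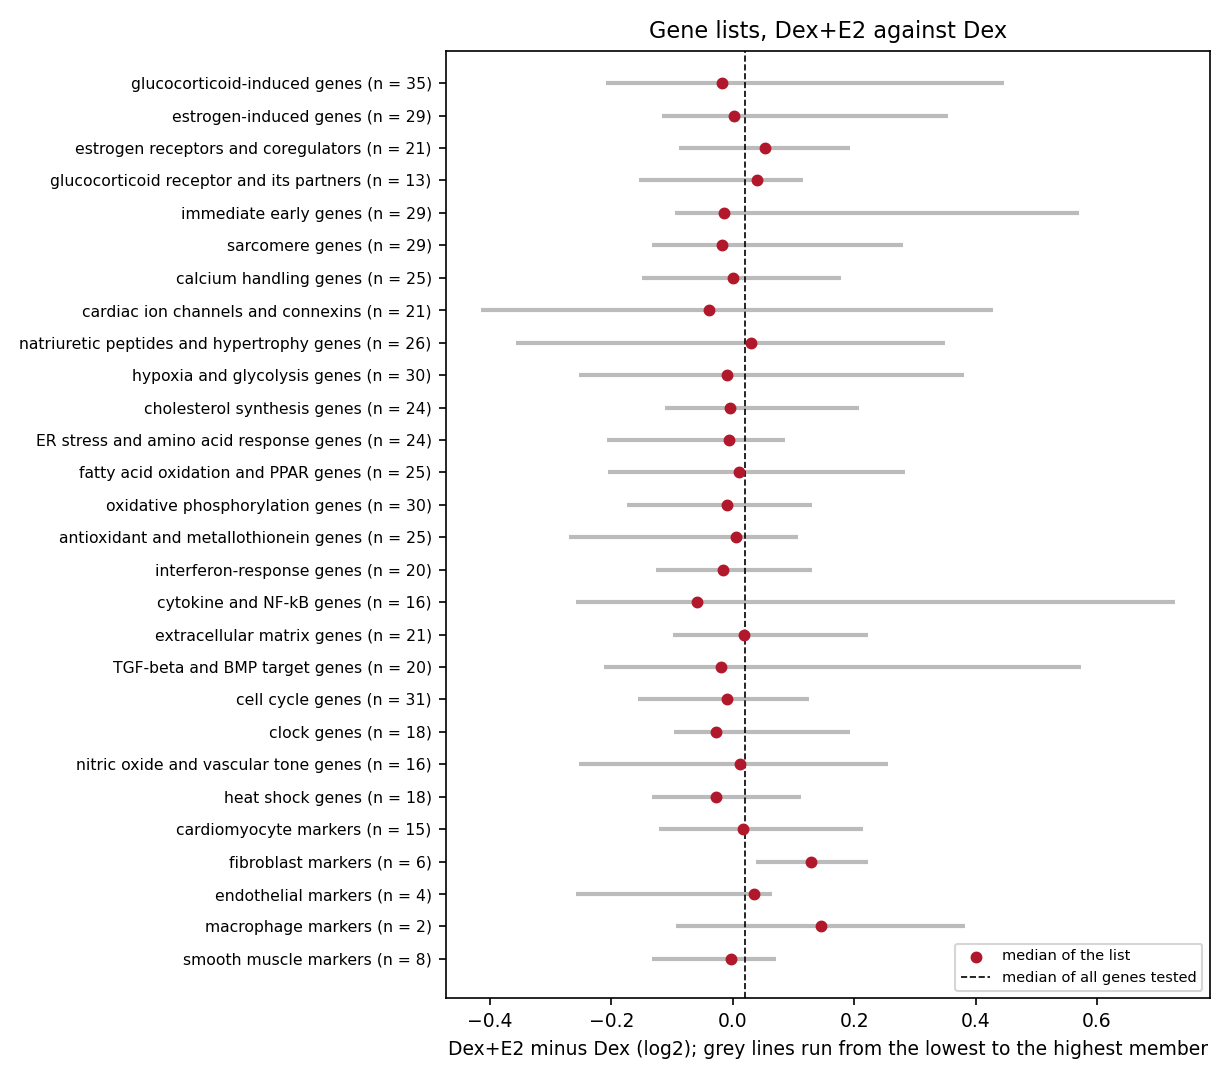
Median difference (log2, red) and range from the lowest to the highest member (grey) of 28 gene lists, Dex+E2 minus Dex, with the median of all genes tested as a dashed line at 0.02. The medians lie between -0.06 and 0.14, and 0 members of any list were called. With the 75th percentile 12 of the 28 medians are above 0, with the array median 1 and within slide 3 27.

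By the median absolute difference over genes, arrays 1 and 2 of each group lay closer to each other than either did to array 4. By correlation this was not so for Dex+E2 2, at 0.9928 with Dex+E2 1 and 0.993 with Dex+E2 4. Arrays 1 and 2 shared a slide and array 4 lay on another, so slide and replicate number cannot be told apart here. Arrays of 1 group on the same slide differed by a median of 0.0779 (Dex 1 and 2) and 0.0992 (Dex+E2 1 and 2) over genes, and those on different slides by 0.172 to 0.230. The median absolute difference between the group means, each over 3 arrays, was 0.068. Within slide 3, where Dex 4 stood alone against Dex+E2 1 and 2, the median over all genes was 0.13 and 0 genes were called, with 4012 at an unadjusted p under 0.05. The lone Dex array was assumed there to vary like the others.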

How the data were processed

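HL-1 cells, 16 single-colour Agilent arrays, 4 per label. Spots were quantified with Agilent Feature Extraction 12, per the submitters' processing notes, and the processed signal is a background-subtracted linear intensity, per the file headers. A deposited log2 table of the same arrays, with 1 median of 4.698 for every array and a method not given in the sources used here, was an alternative only. It correlated with the scanner values at r of 0.999 or more on the 6 arrays.

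Control and outlier-flagged spots were dropped and spots of one of the 41174 probes averaged. The level was log2 of the signal minus log2 of the array's 75th percentile, which was 402 to 557 intensity units. Kept were the 23948 probes that stood well above background on each of the 3 arrays of either group. A gene was represented by its brightest probe, by the mean of 16 arrays. RefSeq accessions (GRCm38.p6) named 28223 probes, and 12845 of 17316 genes tested had a symbol. In 50 genes an array lacked a value and was dropped from the fit.

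Limma 3.58.1 (lmFit, eBayes with a trend, R 4.3.3) was fitted to the 6 arrays with the label as the only term, with Benjamini-Hochberg adjustment over all genes, a threshold of 0.05, two-sided, and intervals at 95%. It was tested on simulated data with noise independent between arrays. That simulation held no slide effect, so it cannot say how the fit does where arrays share a slide. E2 against Vehicle (arrays 1 to 3) and the difference of the estradiol differences (12 arrays) used the same genes. Named are the 12 genes per direction described in the text, a fixed panel of receptors and targets, and the extremes of each of 28 lists. The arrays, lists and rules were chosen with earlier results of these data known. Alternatives were the background correction, scaling, filter, probe choice, trend, slide, replicate block and each array left out. The number of arrays limits the precision.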

Additional observations from a re-analysis of the deposited data

Results flagged for a closer look

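Per1 was high on 2 arrays that carry no dexamethasone on their label and entered no comparison here. It was at 1.75 on the array labelled Vehicle 4 and at 1.95 on the array labelled E2 4, where Vehicle 1 to 3 were at -0.96, -0.75 and -1.11. The signal drew attention because it lies in arrays outside the comparison and above the control level.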

How the results depend on the processing

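The count of 0 called genes held with stricter and with no filtering of dim probes, the mean of a gene's probes, slide as a random block, the 12-array fit and all 8 arrays. Slide as a fixed block also gave 0, with a smallest limma adjusted p of 0.0613. Its differences rest on slide 3, the only slide with both groups, so slide 3 alone is not a separate check. The count was 1 with quantile normalization, 1 in the deposited log2 table and 1 without the trend, each time Pde4d. With the array median it was 5, Pde4d, D630023F18Rik and Gpr137c among them. These named probes passed the filter through 1 group only. Leaving out 1 array called 0 to 2 genes, and 290 to 1187 genes had an unadjusted p under 0.05 (470 with all): 290 without Dex 1, and 1187 without Dex+E2 4, where AF240166 and Gpr137c were called. Normexp on the median spot signal was chosen after seeing the data, since the files used here have no mean signal. It called 8 genes, and 46 had an unadjusted p under 0.05. For Tmem51, Phlpp2, Igfbp7, Armc8 and Slc35f6 the Dex+E2 2 spot was 30 to 123.5 units against 601 to 9079 on the other 5 arrays. For Prim1 and Cdk5rap2 the local background on Dex+E2 4 was 10946 and 10315.5 against 21 to 27 elsewhere, and for Fyttd1 it was 2296 on Dex 2 against 19 to 24. Normexp also called 2354 genes between E2 and Vehicle, and the cause was not tested. Unadjusted counts were 942 with no filter, where more genes were tested, 5757 with slide as a fixed block and 4012 within slide 3, both of which leave few arrays to estimate the spread.

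For the genes below the sign turned, and the cause was not tested. Under normexp Vps37c was at 0.13, Foxd3 at 0.35, Esr2 at 0.26, Nr3c1 at -0.0515, Tsc22d3 at -0.14 and Klf15 at -0.0499. With slide as a fixed block and within slide 3 Greb1 was at -0.10, Esr2 at 0.26, Klf15 at -0.10 and Sgk1 at 0.29, and with slide as a random block (correlation 0.4) Esr2 was at 0.0485 and Sgk1 at 0.0803. With the array median Gper1 was at -0.00432, Nr3c1 at -0.0174, Tsc22d3 at -0.13 and Klf15 at -0.0084. With the mean of probes Fkbp5 was at 0.12 and Klf15 at -0.0025. Tsc22d3 was at -0.000767 in the deposited table, and with all 8 arrays Tsc22d3 was at -0.0234 and Sgk1 at 0.0134. Leaving out 1 array gave ranges of -0.0083 to 0.35 for Tff1, -0.173 to 0.0463 for Esr2, -0.0741 to 0.0176 for Per1, -0.24 to 0.14 for Fkbp5, -0.033 to 0.0241 for Tsc22d3, -0.129 to 0.0728 for Klf9, -0.13 to 0.0644 for Sgk1 and -0.0948 to 0.0379 for Ptgds. Of the 28 list medians 12 were above 0, 1 with the array median, 5 with quantile normalization, 8 under normexp, 26 with slide as a random block and 27 with slide as a fixed block or within slide 3, where they reached 0.585 for fibroblast markers. Leaving out 1 array gave 4 (without Dex 4) to 26 (without Dex+E2 4).

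Deviations of same-numbered arrays correlated at 0.05, 0.03 and 0.34, and those of arrays with unlike numbers at -0.26 to 0.23. Dex 4 and Dex+E2 4, on different slides, gave the 0.34. Each of them correlated at -0.26 to -0.15 with arrays 1 and 2 of the other group. Whether arrays of the same number shared an experiment was not tested, and the main fit did not pair them. With the replicate block 0 genes were called and 627 had an unadjusted p under 0.05. It also called 0 between E2 and Vehicle and for the difference of the estradiol differences.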

Other observations

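The array labelled Dex+E2 2 held 16 genes that were above background on all 6 arrays and there more than 4-fold lower than on any of the other 5. No other array of the 6 had such a gene, and the number more than 4-fold higher on 1 array was 9 for Dex+E2 1 and at most 2 for the other arrays. Tmem51 was at -5.49 on Dex+E2 2 and at 3.30 to 4.26 on the other 5, and Mast2, a microtubule-associated kinase gene, at 0.18 against 4.38 to 4.78. Igfbp7, a secreted binding protein of the insulin-like growth factor system, was at -2.32 against 2.29 to 2.38, and Phlpp2, a phosphatase of Akt, at -1.78 against 2.43 to 2.69. These genes gave many of the larger group differences without any separation of the groups. Of the 33 genes at least 2-fold apart between the groups and above background on all 6 arrays, 14 were lower with Dex+E2, and 13 of these were lowest on Dex+E2 2. Groups did not overlap for 13 of the 33, where over all genes 5.71% were higher and 2.03% lower without overlap. The 33 were picked for their gap between the same groups, so their number without overlap is in part set by that choice.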
